A study of Mus musculus with 6 samples.

Results

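Mitosis, spindle and kinetochore genes were examined in mouse embryonic stem cells that carried a short hairpin RNA against Chd8, an ATP-dependent chromatin remodeller. The set was a fixed list of 50 genes of mitotic entry, the spindle, the kinetochore, its checkpoint, anaphase and cytokinesis, matched by gene symbol to the probes of an Illumina bead array. Of these, 49 genes had a probe among 19057 named genes on the array, 97 probes in all, and Ccnb1 was not analysed here. A probe was tested when its signal was above the negative controls (detection p under 0.01) on at least 3 of 6 arrays. This held for 68 of the probes and for 43 of the genes, called measured here. The brightest probe of 41 of the 43 was detected on all 6 arrays. The exceptions were Ccna2, detected on 3 control and 1 shChd8 arrays, and Cdc25b, detected on 2 and 3. Ccna2 thus met the bar only through the group where it was high, and Cdc25b only through the shChd8 arrays, where it was lower. Ccnb2, Bub1, Cenpe, Hmmr and Racgap1 were above the negative controls on no array, and Kif20a on 1 control array, so their probes were not well above background and gave no comparison.

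The shChd8 group was 3 arrays of cells given a pHYPER plasmid with the hairpin, and the control group was 3 arrays of cells labelled control for the Chd8 experiment. The content of the control plasmid is not stated in the labels. Both groups were electroporated, then kept in puromycin from 24 h after transfection for 48 h, and were grown in 15% serum with leukemia inhibitory factor on mouse embryonic fibroblasts that mitomycin C had stopped from dividing. The labels name 1 hairpin and no rescue, and they state neither the stem cell line and its genotype nor whether arrays came from separate cultures. The p-values therefore rest on the spread between samples that may be technical replicates. The control arrays lay at slide positions D to F and the shChd8 arrays at A to C, so the effect of position cannot be told apart from that of the hairpin.

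Cells enter mitosis when cyclin-dependent kinase 1, bound to cyclin A or B, is freed of its inhibitory phosphates by Cdc25 phosphatases. Polo-like and Aurora kinases then build the spindle, kinetochores attach chromosomes to it, and the spindle checkpoint holds back the anaphase-promoting complex until every chromosome is attached. Most of these genes are transcribed in waves that peak in G2 and mitosis, through a promoter element called CHR and through CCAAT boxes, and embryonic stem cells are known for a short cell cycle with little G1.

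Promoter windows of RefSeq (GRCm38.p6), from 250 bases before the start of transcription to 50 after it, were matched for 41 of the 50 genes, with 46 windows in all. The letters TTTGAA or TTTAAA, the core of the CHR element, were searched on both strands, and TTTAAA reads the same on both. They were found in 35 of the 46 windows (76.1%), against 27.6% of all 32851 windows in the table and 18.9% of the 10116 windows of genes tested on the arrays. TTTGAA alone was found in 69.6% of the members' windows and in 17.9% of all windows. The letters CCAAT, on either strand, were found in 36 windows (78.3%), against 37.4% of all windows, and 30 windows (65.2%) held both kinds of letters, against 10.7%. Within 50 bases of the start of transcription, CHR letters were found in 67.4% of the members' windows and 8.28% of all windows. The 5 windows printed here belong to the genes with the lowest p among those with a window in the table, and show where the letters lie. Capitals mark CHR letters and CCAAT on either strand. Read from the opposite strand, CCAAT appears as ATTGG and the first of the CHR letters as TTCAAA.
Aurka, chr2:172370521-172370820, minus strand: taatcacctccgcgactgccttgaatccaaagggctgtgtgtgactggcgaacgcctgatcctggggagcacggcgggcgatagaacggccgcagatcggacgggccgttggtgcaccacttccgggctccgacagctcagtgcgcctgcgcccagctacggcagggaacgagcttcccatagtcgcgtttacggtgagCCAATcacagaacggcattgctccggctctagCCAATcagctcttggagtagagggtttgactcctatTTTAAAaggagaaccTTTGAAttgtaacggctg
Cdk1, chr10:69352863-69353162, minus strand: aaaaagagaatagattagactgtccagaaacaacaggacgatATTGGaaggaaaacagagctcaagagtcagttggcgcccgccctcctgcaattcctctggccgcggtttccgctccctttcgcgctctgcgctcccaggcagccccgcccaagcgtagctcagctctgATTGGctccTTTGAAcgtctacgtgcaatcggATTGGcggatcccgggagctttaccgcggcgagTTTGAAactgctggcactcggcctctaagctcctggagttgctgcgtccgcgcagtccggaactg
Espl1, chr15:102296043-102296342, plus strand: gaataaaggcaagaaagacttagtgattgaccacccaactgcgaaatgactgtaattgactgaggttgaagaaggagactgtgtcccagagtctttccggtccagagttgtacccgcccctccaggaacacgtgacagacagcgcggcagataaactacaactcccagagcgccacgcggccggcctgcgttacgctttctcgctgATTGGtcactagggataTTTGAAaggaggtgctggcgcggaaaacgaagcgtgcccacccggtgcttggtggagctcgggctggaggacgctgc
Top2a, chr11:99024140-99024439, minus strand: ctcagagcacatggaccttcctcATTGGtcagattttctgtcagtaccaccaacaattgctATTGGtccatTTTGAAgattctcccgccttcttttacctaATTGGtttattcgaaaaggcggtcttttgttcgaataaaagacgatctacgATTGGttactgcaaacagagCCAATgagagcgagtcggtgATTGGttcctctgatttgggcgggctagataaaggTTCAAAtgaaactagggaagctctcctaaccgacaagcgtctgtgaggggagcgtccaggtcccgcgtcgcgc
Ckap2, chr8:22185770-22186069, minus strand: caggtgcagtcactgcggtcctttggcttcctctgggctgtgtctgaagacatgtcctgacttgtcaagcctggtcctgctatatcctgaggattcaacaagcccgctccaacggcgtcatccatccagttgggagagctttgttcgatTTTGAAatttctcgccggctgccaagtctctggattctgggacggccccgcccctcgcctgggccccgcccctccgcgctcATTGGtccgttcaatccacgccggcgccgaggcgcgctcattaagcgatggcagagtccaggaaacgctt
In Cdk1 a TTTGAA began 15 bases before the start and the nearest ATTGG 48 bases before it, and in Espl1 these distances were 27 and 44 bases. In Top2a a TTCAAA began 23 bases before the start, below 6 CCAAT boxes. In Ckap2 the TTTGAA lay 101 bases before the start. In Aurka both CHR letters lay after the start of transcription, and CCAAT began 51 and 19 bases before it. A match of letters is a description and not a site of binding.

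The hairpin's target was low where the labels say it should be. Chd8 (probe ILMN_2703082) had normalized log2 intensities of 9.90, 9.97 and 10.02 in control cells and 8.71, 8.64 and 8.36 in shChd8 cells, a log2 change of -1.39 (SE 0.15, limma adjusted p = 0.00907). Embryonic stem cell markers were present, with all 13 listed genes detected on all 6 arrays. Before normalization the mean intensity lay between 389.9 and 413.1 on control arrays and between 419.5 and 497.5 on shChd8 arrays, and 16482 to 17440 of 45281 probes were detected per array.

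Most mitosis genes lay slightly lower in shChd8 cells, and 1 passed the test. Cdc25c, the phosphatase that activates Cdk1 at mitotic entry, fell by 0.98 on the log2 scale (SE 0.15, limma adjusted p = 0.0248), and 0 genes rose. At an unadjusted p under 0.05 on the brightest probe of each gene, 13 were lower and 1, Ckap2, was higher. Among all 9711 genes tested, 5.17% were called at an adjusted p under 0.05, 3.05% lower and 2.12% higher, so 1 call among 43 genes (2.33%) was no more than this background. The unadjusted counts stand beside 14.0% of all genes lower and 13.4% higher. On the brightest probe, 37 of the 43 genes had a log2 change below 0 (86.0%, against 51.8% of all genes), and the median was -0.29, against -0.02 for all genes. In 18 genes every shChd8 array lay below every control array (41.9%, against 18.2% of all genes), and in Ckap2 every shChd8 array lay above (against 14.6% of all genes). Ccna2 is among these 13, 18 and 37 genes. Without it, a count added after the data were seen, 12 were lower at the unadjusted p, 17 lay without overlap and 36 of 42 were below 0, with a median of -0.29. In a mixture of stem cells and feeder cells, fewer cells in mitosis and less RNA per cell cannot be told apart.

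**Figure D1:**
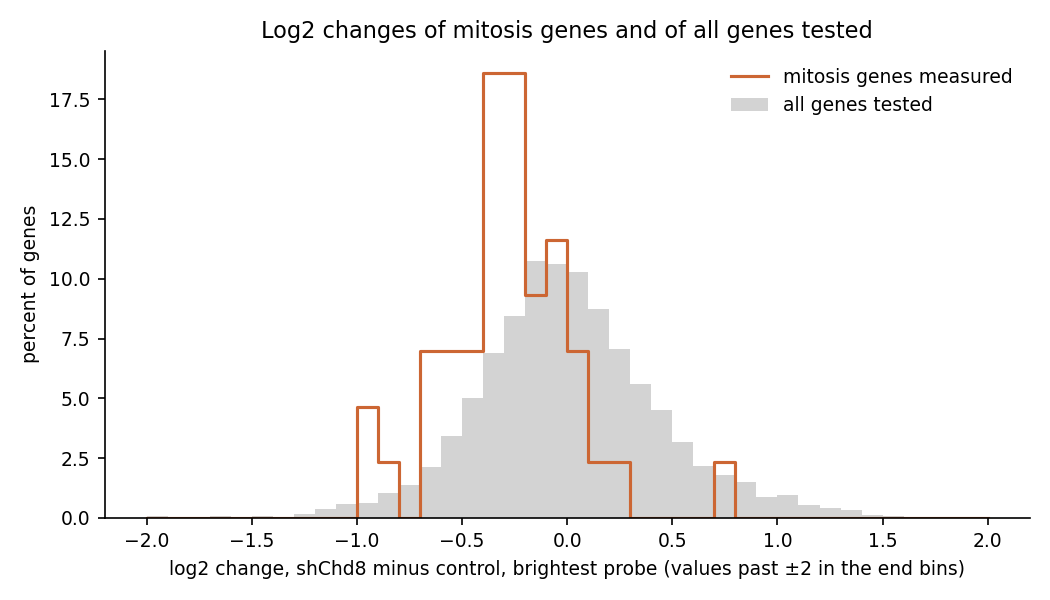
Distribution of the log2 change (shChd8 minus control, brightest probe of each gene, horizontal axis) as percent of genes, in bins of 0.1, for the 9711 genes tested (grey bars) and the 43 measured mitosis genes (line). The line is shifted to the left of the bars, with medians of -0.29 and -0.02, and 1 gene, Ckap2 at 0.72, stands apart on the right.

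Genes of mitotic entry had a median log2 change of -0.51 over 7 measured genes. All 7 lay below 0 (against 51.8% of all genes) and 5 lay without overlap between groups (against 18.2%). Ccna2, which met the detection bar only through the control arrays, is among these 7 and these 5. Cdc25c (probe ILMN_2637704) had log2 intensities of 7.79, 7.79 and 8.02 in control cells and 6.83, 6.78 and 7.06 in shChd8 cells. Every shChd8 array was lower by more than the range within either group, and the mean of 6.89 ± 0.15 (SD, n = 3) against 7.87 ± 0.13 (SD, n = 3) left 50.8% of the control level. A second Cdc25c probe (ILMN_1252063) went the same way by less, with 7.19, 7.08 and 7.46 in control and 6.93, 6.90 and 6.99 in shChd8 cells, a log2 change of -0.31 (SE 0.15, adjusted p = 0.251). These groups did not overlap either, and the third probe was detected on no array. The call on Cdc25c was lost without control replicate 1 (adjusted p = 0.0739), control replicate 3 (0.0883), shChd8 replicate 1 (0.113) or shChd8 replicate 2 (0.0971), and with an unmoderated test (0.0813). Without background correction its log2 change was -0.63, still called (adjusted p = 0.00654).

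Aurka, the Aurora kinase of centrosomes and spindle poles, had log2 intensities of 11.61, 11.33 and 11.55 on control and 10.86, 10.91 and 10.83 on shChd8 arrays. The shChd8 values were tight and all below the control values, with a log2 change of -0.63 (SE 0.15) that just missed the threshold (limma adjusted p = 0.0532). Cdk1, the kinase that drives entry into mitosis, had 11.62, 11.65 and 11.76 on control and 11.16, 11.14 and 11.21 on shChd8 arrays. The gap of -0.51 (SE 0.14, adjusted p = 0.0705) was wider than the range within either group. Ccna2, which encodes the cyclin A of S phase and G2, was dim, with 5.32, 5.60 and 5.58 on control and 4.76, 4.68 and 5.13 on shChd8 arrays (-0.64, SE 0.18, adjusted p = 0.0728). Its lower group lay partly at background, and the log2 change was -0.20 without background correction. The polo-like kinase Plk1 had a log2 change of -0.42 (SE 0.16, adjusted p = 0.145), the phosphatase Cdc25b -0.31 (SE 0.25) and Foxm1, a transcription factor of G2 and mitosis genes, -0.30 (SE 0.17). Foxm1 and Cdc25b overlapped between groups. Cdk1, Ccna2 and Plk1 were singled out after their values had been seen.

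**Figure D2:**
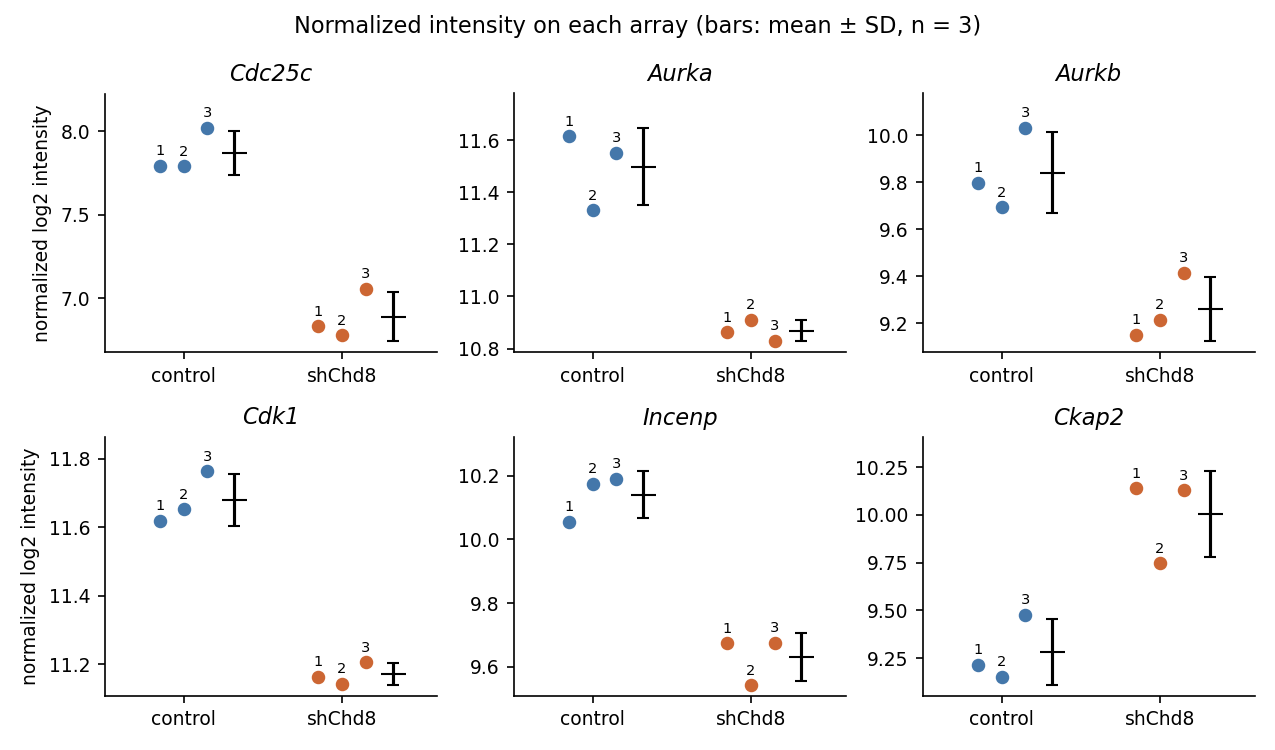
Normalized log2 intensity of 6 mitosis genes on each array (points, numbered by replicate), with the mean and SD of 3 control and 3 shChd8 arrays beside them; vertical axes do not start at 0 and differ between panels. The groups do not overlap in any panel, and Ckap2, with a log2 change of 0.72, is the 1 gene of the 6 that is higher in shChd8 cells. The 6 are among the members with the lowest p, so the lack of overlap goes with the choice of genes. Of all genes tested, 18.2% lay lower and 14.6% higher without overlap.

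The chromosomal passenger complex, which corrects wrong attachments of chromosomes to the spindle and acts in cytokinesis, had a median log2 change of -0.37. All 4 of its genes lay below 0 (against 51.8% of all genes), and 3 lay without overlap (against 18.2%). Its kinase Aurkb had 9.80, 9.69 and 10.03 on control and 9.15, 9.21 and 9.42 on shChd8 arrays (-0.58, SE 0.16, adjusted p = 0.0735). Its scaffold Incenp had 10.06, 10.17 and 10.19 on control and 9.67, 9.54 and 9.68 on shChd8 arrays (-0.51, SE 0.14, adjusted p = 0.0728). In both genes the lowest control array stood above the highest shChd8 array. The 2 targeting subunits moved less, with -0.24 (SE 0.14) for Cdca8, which encodes borealin, and -0.12 (SE 0.15) for Birc5, which encodes survivin. All 3 tested Birc5 probes overlapped between groups and lay between -0.12 and -0.11.

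Genes that trigger anaphase had a median of -0.50 over 4 measured genes. All 4 lay below 0 (against 51.8% of all genes), and 1 lay without overlap (against 18.2%). Espl1, which encodes separase, the protease that cuts cohesin, had 9.42, 9.23 and 9.39 on control and 8.53, 8.66 and 9.04 on shChd8 arrays (-0.61, SE 0.18, adjusted p = 0.0819). Its groups did not overlap, although shChd8 replicate 3 lay nearer to the controls than to the other 2 shChd8 arrays. Pttg1, which encodes securin, the inhibitor of separase, had 7.01, 6.04 and 6.91 on control and 5.93, 5.32 and 6.09 on shChd8 arrays (-0.87, SE 0.30, adjusted p = 0.117). Here control replicate 2 fell within the shChd8 range, and without that array limma called the gene (log2 change -1.19, adjusted p = 0.0422). Without background correction the log2 change of Pttg1 was -0.40. Ube2c, the ubiquitin-conjugating enzyme of the anaphase-promoting complex, had -0.39 (SE 0.20) with overlap between groups, and -0.15 without background correction. Cdc20, an activator of the complex, had -0.06 (SE 0.14) on the brightest of 4 tested probes, which ranged from -0.30 to -0.04.

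Spindle checkpoint genes had a median of 0.03, with 1 of 4 below 0 (against 51.8% of all genes). Mad2l1, which encodes the checkpoint protein Mad2, had 11.67, 11.52 and 11.63 on control and 11.18, 11.30 and 11.49 on shChd8 arrays, without overlap (-0.28, SE 0.15, adjusted p = 0.275). The checkpoint kinases and their partners lay close to 0 and overlapped between groups. Bub1b had -0.11 (SE 0.18) on 1 probe and 0.027 (SE 0.16) on its brightest, Bub3 had 0.10 (SE 0.22) and Ttk had 0.033 (SE 0.25). The first of these Bub1b values turned to 0.10 with median scaling. Of 4 checkpoint genes 0 were called by limma, also at an unadjusted p under 0.05.

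Centromere and kinetochore genes had a median of -0.21, with 7 of 8 below 0 (against 51.8% of all genes) and 3 without overlap (against 18.2%). Of these genes 0 were called by limma, also at an unadjusted p under 0.05 on the brightest probe. Cenpa, the histone H3 variant that marks centromeres, had 13.43, 13.47 and 13.49 on control and 13.05, 13.19 and 13.33 on shChd8 arrays on its brightest probe (-0.28, SE 0.14), and -0.53 (SE 0.20, adjusted p = 0.14) on a dimmer one. Both probes were without overlap. Cenpk, a subunit of the inner kinetochore, had 7.50, 7.47 and 7.57 on control and 6.82, 7.23 and 7.33 on shChd8 arrays (-0.39, SE 0.17, adjusted p = 0.201). Within the Ndc80 complex, which binds microtubules, Spc24 had -0.34 (SE 0.18) without overlap, while Nuf2 had -0.15 (SE 0.16), Spc25 -0.02 (SE 0.14) and Ndc80 0.08 (SE 0.23), all with overlap. Cenpf and Cenph had -0.29 (SE 0.21) and -0.14 (SE 0.20).

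Kinesins, the motors that slide and shorten spindle microtubules, had a median of -0.33. Of 6 measured, 5 lay below 0 (against 51.8% of all genes) and 3 without overlap (against 18.2%). Kif22, a motor on chromosome arms, had 11.51, 11.46 and 11.54 on control and 10.90, 11.07 and 11.28 on shChd8 arrays (-0.42, SE 0.15, adjusted p = 0.14). Kif4, which acts on chromosomes and the central spindle, had 9.35, 9.18 and 9.28 on control and 8.75, 8.80 and 9.13 on shChd8 arrays (-0.38, SE 0.16, adjusted p = 0.183). In both genes shChd8 replicate 3 was the highest array of its group. The dimmer tested probes of Kif4 had -0.24 (SE 0.26) and -0.15 (SE 0.15), with overlap between groups. Kif2c, a microtubule depolymerase, had -0.35 (SE 0.17), and the bipolar spindle motor Kif11 had -0.07 (SE 0.20). Kif20b, a motor of late cytokinesis, had 0.27 (SE 0.16). Kif23, a motor of the central spindle, had tested probes of opposite sign, with -0.30 (SE 0.16), -0.32 (SE 0.18) and 0.22 (SE 0.15), and the groups overlapped on each.

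Ckap2, which encodes a microtubule-associated protein of the spindle, went the other way from most members. It had 9.22, 9.15 and 9.48 on control and 10.14, 9.75 and 10.13 on shChd8 arrays, a log2 change of 0.72 (SE 0.17) that missed the threshold (limma adjusted p = 0.0562). Every shChd8 array stood above every control array. The other spindle assembly genes overlapped between groups, with -0.26 (SE 0.18) for Tpx2, an activator of Aurora A, -0.26 (SE 0.16) for Prc1, which bundles antiparallel microtubules, and -0.0057 (SE 0.15) for the brightest probe of Nusap1, which binds spindle microtubules. Nusap1 had tested probes of opposite sign, from -0.42 (SE 0.24) to 0.14 (SE 0.23), and the first of these was -0.17 without control replicate 3 and -0.66 without control replicate 1.

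In chromosome structure, Top2a, the topoisomerase that untangles sister chromatids, lay without overlap on its brightest probe (-0.48, SE 0.14, adjusted p = 0.0896). This probe had 11.36, 11.15 and 11.24 on control and 10.77, 10.68 and 10.87 on shChd8 arrays. A dimmer tested probe of Top2a had -0.29 (SE 0.19) with overlap between groups. Smc4, the condensin ATPase, had 6.95, 6.66 and 7.43 on control and 6.05, 5.62 and 6.50 on shChd8 arrays on its brightest probe (-0.96, SE 0.27, adjusted p = 0.0754). The arrays of each group were far apart, its 2 dimmer probes had -0.32 (SE 0.19) and -0.26 (SE 0.22) with overlap, and the brightest had -0.48 without background correction. Its partner Smc2 had -0.11 (SE 0.26) and the condensin subunit Ncaph -0.30 (SE 0.18). The 2 measured cytokinesis genes overlapped between groups, with -0.23 (SE 0.24) for Ect2, an activator of RhoA, and -0.07 (SE 0.19) for the brightest probe of the ring protein Anln. Ect2 turned to 0.032 with median scaling and to 0.023 without shChd8 replicate 2. On its other tested probe, the one with the lower p, Anln had -0.33 (SE 0.26), which was -0.033 without control replicate 1 and -0.15 without background correction.

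**Figure D3:**
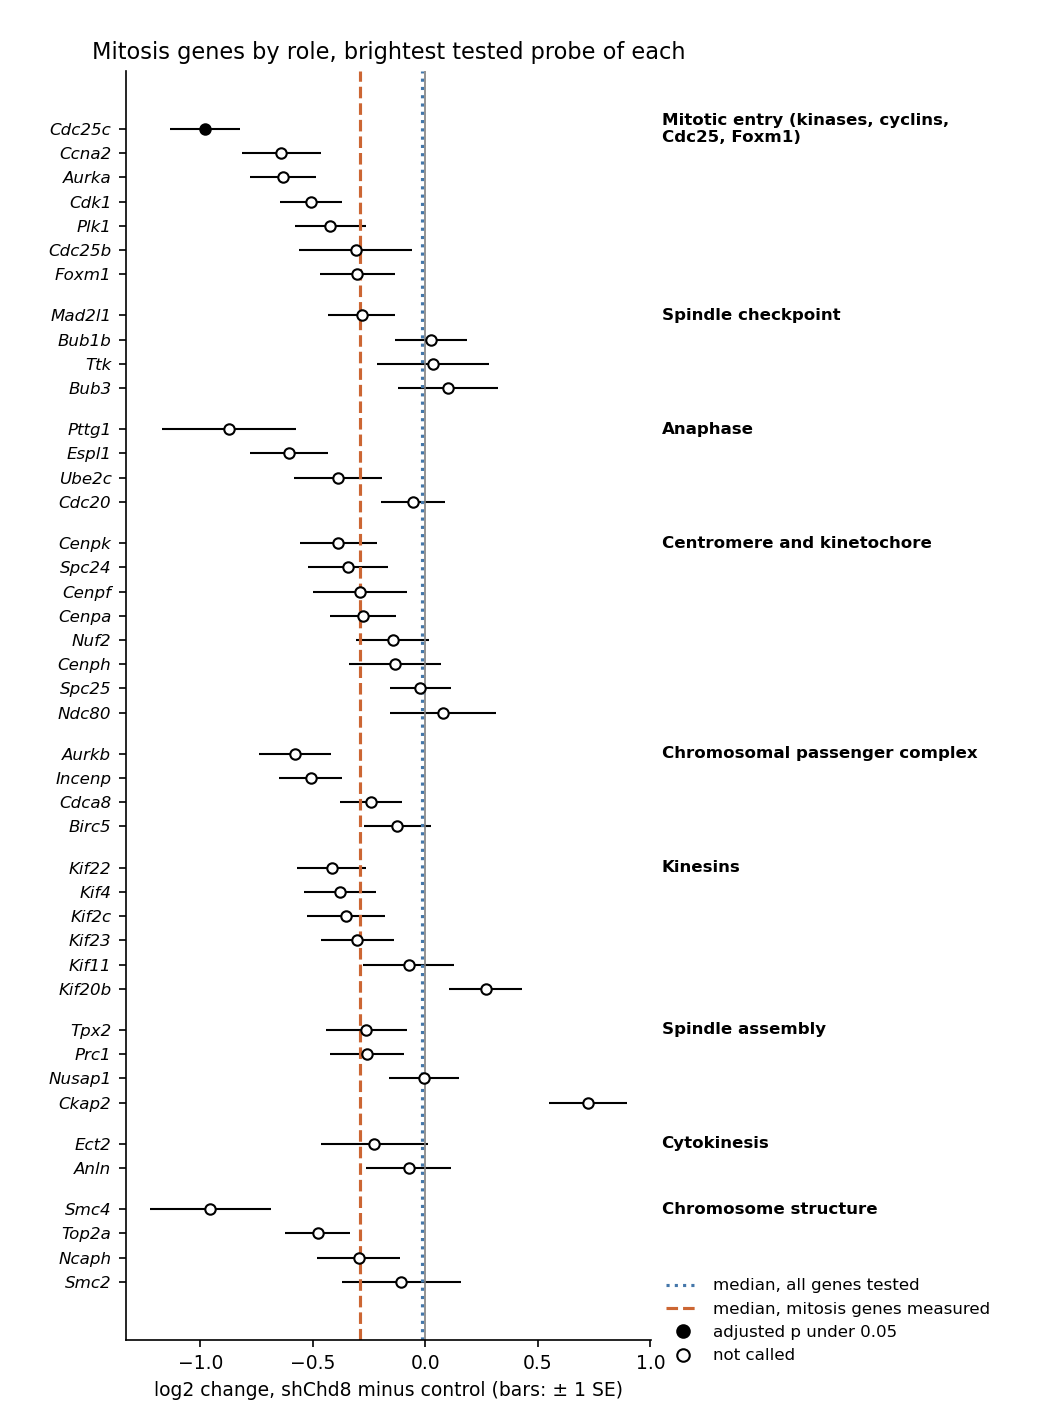
Log2 change (shChd8 minus control) of the 43 measured mitosis genes, grouped by role, on the brightest tested probe of each; bars are 1 SE. Cdc25c (filled point, -0.98) is the 1 gene with an adjusted p under 0.05, the dashed line is the members' median of -0.29 and the dotted line the median of all genes, -0.02.

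The arrays of a group did not behave alike. The median deviation of the 43 genes from their mean over the 6 arrays was 0.20, 0.06 and 0.23 in control cells and -0.26, -0.24 and 0.02 in shChd8 cells. Control replicate 2 and shChd8 replicate 3 lay close together, while the other control arrays stood above 0 and the other shChd8 arrays below it. The median log2 change was -0.40 without shChd8 replicate 3 and -0.23 without shChd8 replicate 1, and the number of members called was 0 without control replicate 1, control replicate 3, shChd8 replicate 1 or shChd8 replicate 2, 3 without control replicate 2 and 1 without shChd8 replicate 3. Limma called 15 to 679 of all genes in these fits, with 15, 27, 34 and 44 in the fits that called 0 members.

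Other genes that act in mitosis lay mostly below 0 too. Of 76 further mitotic genes 57 were measured, 43 of them below 0 (75.4%, against 51.8% of all genes), with a median of -0.25 (against -0.02). Of these genes 1 was called lower and 1 higher (3.51% called, against 5.17% of all genes). Pbk, a mitotic kinase, fell by 0.85 (SE 0.18, adjusted p = 0.042), Cenpm, a kinetochore subunit, rose by 0.80 (SE 0.16, adjusted p = 0.04), and Dlgap5, a spindle protein, had -0.65 (SE 0.15, adjusted p = 0.0501). The brightest Cenpm probe had 0.68 (SE 0.22, limma adjusted p = 0.105) and was not called, and the brightest Dlgap5 probe had -0.49 (SE 0.17). By array, the median deviation of the 57 further mitotic genes had the same outline as that of the members. It was 0.16, 0.02 and 0.16 on control and -0.17, -0.16 and 0.07 on shChd8 arrays. Among 9 measured genes of the DREAM and MuvB complexes, which repress or activate G2 and mitosis genes, 0 were called by limma, and the median was -0.24. On the brightest probe of each gene 3 passed an unadjusted p of 0.05, beside 14.0% of all genes lower and 13.4% higher. Of these 3, Mybl2 and E2f4 were lower and Lin54, named after its value was seen, was higher at 0.38 (SE 0.14). Mybl2, which encodes the B-Myb factor that works with MuvB, had -0.64 (SE 0.18, adjusted p = 0.083), E2f4 -0.41 (SE 0.14) and Tfdp2 0.43 (SE 0.14), each on the probe with the lowest p. The brightest Tfdp2 probe had 0.27 (SE 0.16).

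The anaphase-promoting complex and cohesin had medians near 0. Over 12 measured genes of the complex the median was 0.09, with 4 below 0 (33.3%, against 51.8% of all genes). Its subunit Cdc16 fell by 0.70 (SE 0.15, adjusted p = 0.0481), the enzyme Ube2s had -0.54 (SE 0.24) and Anapc5 -0.39 (SE 0.15). For cohesin and its regulators the median was -0.09, with 7 of 12 below 0 (against 51.8% of all genes). Of these 12 genes 0 were called by limma, also at an unadjusted p under 0.05 on the brightest probe. The cohesin ATPase Smc1a had 0.59 (SE 0.25) on 1 probe and 0.02 on its brightest, the release factor Wapl -0.50 (SE 0.24) and the loader Mau2 0.31 (SE 0.14). No test compared these lists with the mitosis genes.

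Genes linked to arrest in G2 were higher in the same arrays. Of 10 measured, 4 rose and 0 fell, against 2.12% of all genes called higher, and the median was 0.83. This list, like the others, was chosen with earlier results of these data known, so these counts are a description. Plk2, a polo-like kinase induced by stress, rose by 1.37 (SE 0.17, adjusted p = 0.0133), and Ccng1, a cyclin induced by p53, rose by 0.92 (SE 0.17, adjusted p = 0.0366). Gadd45g, an inhibitor of Cdk1 with cyclin B, rose by 1.53 (SE 0.30, adjusted p = 0.0376), and Rprm, known for arrest in G2, rose by 0.73 (SE 0.15, adjusted p = 0.0435). The brightest Gadd45g probe had 1.47 (SE 0.35, limma adjusted p = 0.0559) and was not called. The median deviation of this list was -0.32, -0.02 and -0.77 on control and 0.50, 0.42 and 0.25 on shChd8 arrays. In the feeder markers, described next, control replicate 3 was also the lowest array and shChd8 replicate 1 the highest. Whether this RNA came from stem cells or from feeder cells was not tested.

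Markers of the feeder fibroblasts, whose division had been blocked, were also higher in the shChd8 arrays. Of 37 markers with a probe 32 were measured, 30 of them above 0, with a median log2 change of 0.97, and 2 were called higher (6.25%, against 2.12% of all genes). Fbln2 rose by 1.13 (SE 0.22, adjusted p = 0.0376) on its brightest probe, its other called probe being detected on no control array. Tagln, detected on 2 control and 3 shChd8 arrays, rose by 1.06 (SE 0.22, adjusted p = 0.042). Acta2, a smooth muscle actin, had 1.61 (SE 0.36, adjusted p = 0.051). The summed normalized intensity of the markers was 36887, 35750 and 20428 on control and 83432, 61104 and 42716 on shChd8 arrays. Col5a2, Fbln5, Postn and Cnn1 were detected on no array. The median deviation of the 32 measured markers was -0.18, -0.27 and -0.95 on control and 0.91, 0.52 and 0.0096 on shChd8 arrays. Among the shChd8 arrays the order of the feeder markers was the reverse of that of the mitosis genes. Among the controls, replicate 3 had the lowest feeder deviation (-0.95) and the highest deviation of the mitosis genes (0.23). The order of the other controls was not reversed, since replicate 2 was lower than replicate 1 in both lists. The part of feeder RNA in the lower mitosis values was not tested. Embryonic stem cell markers had a median log2 change of -0.03, with 9 of 13 below 0 (against 51.8% of all genes). Of these 13 markers 0 were called by limma, also at an unadjusted p under 0.05 on the brightest probe. Nanog had -0.29 (SE 0.19), Klf4 0.27 (SE 0.18) and Dppa4 -0.53 (SE 0.22) on the probe with the lowest p. The summed intensity of these markers overlapped between groups, with 90334 to 96626 on control and 86953 to 98167 on shChd8 arrays. Of 9 blood cell markers with a probe, 4 were measured, all above 0 and 0 called by limma. On the brightest probe 1 of them was higher at an unadjusted p under 0.05, against 13.4% of all genes. Laptm5 had 0.49 (SE 0.16), Cd14 0.70 (SE 0.35) and Adgre1 0.37 (SE 0.32), while the general leukocyte marker Ptprc, Tyrobp and Spi1 were detected on no array.

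**Figure D4:**
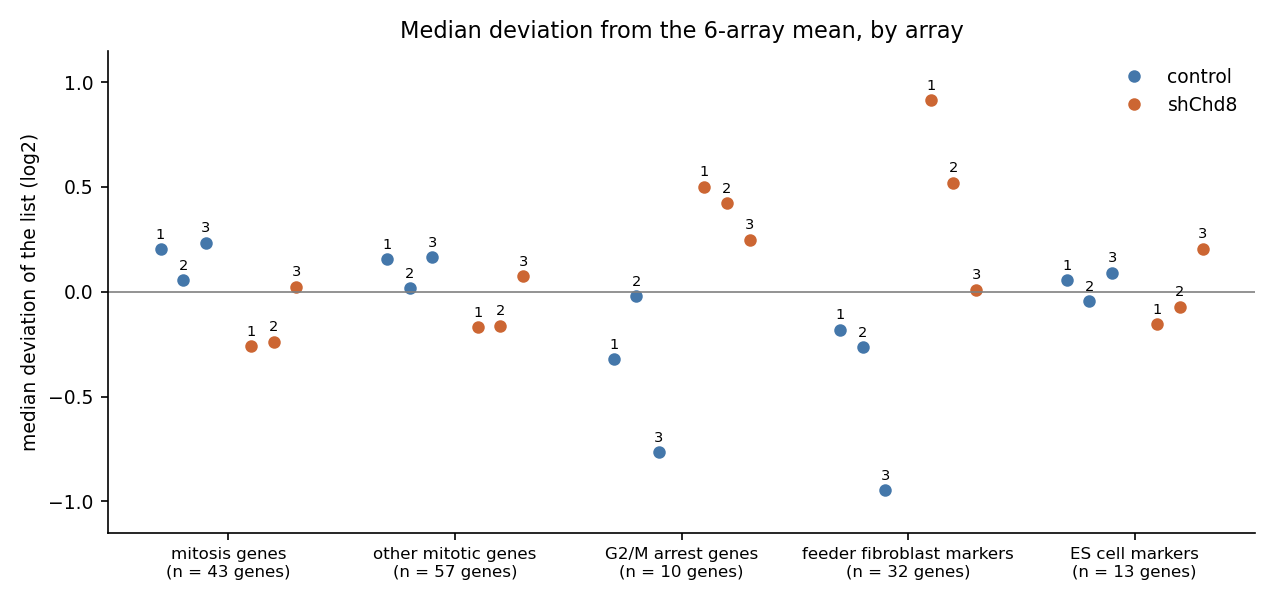
Median deviation of each gene list from its mean over the 6 arrays (log2, vertical axis), 1 point per array, numbered by replicate within control and shChd8. The mitosis genes run from -0.26 to 0.23 and the feeder markers from -0.95 to 0.91, with shChd8 replicate 3 at 0.02 and 0.0096.

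The number of mitosis genes called varied between settings. The members' median stayed between -0.29 and -0.23 under other background corrections, while the number called went from 1 to 9 of 43 without background correction or with the deposited normalized values, and with normexp without controls. These were 8 lower and 1 higher, or 20.9% of the members, beside 13.6%, 13.7% and 12.9% of all genes called in these fits. Aurka, Aurkb, Cdk1, Espl1, Incenp and Top2a were lower and Ckap2 higher in each of these 3 fits, beside Cdc25c. With an intensity trend in the moderation 10 were lower and 1 higher (25.6%, against 13.4% of all genes), and with array weights 9 were lower and 1 higher (23.3%, against 13.2%). Median scaling moved the median of all genes to 0.18 and that of the members to -0.11, so that 27 members lay below 0 and 36 below the median of all genes, as 36 did before. It called Cdc25c lower and Ckap2 higher, and turned the split of all calls from 206 higher and 296 lower to 1165 and 176.

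**Figure D5:**
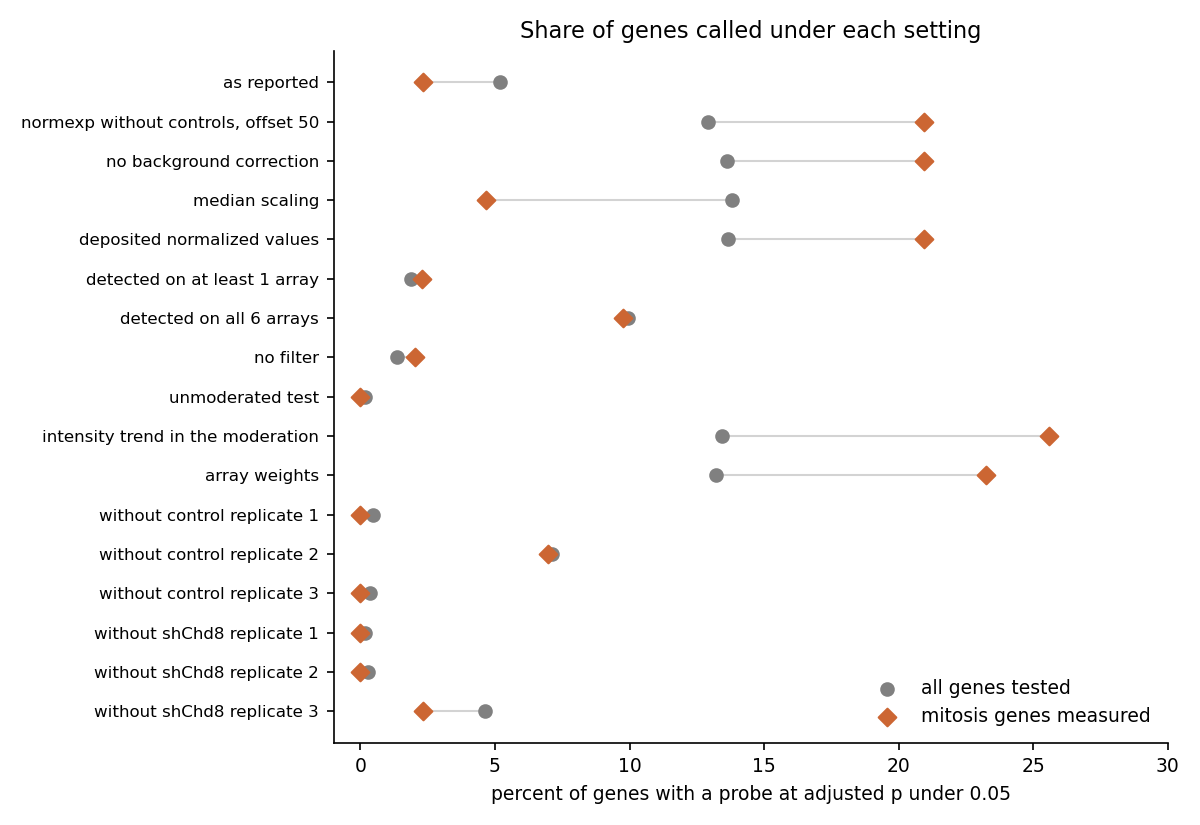
Percent of genes with a probe at an adjusted p under 0.05 (horizontal axis) under each setting, for all genes tested (grey circles) and for the measured mitosis genes (diamonds). The reported fit lies at 5.17% and 2.33%, and the fit with an intensity trend at 13.4% and 25.6%.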

How the data were processed

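RNA of 6 samples was hybridised to Illumina bead arrays, 1 array each. The deposited non-normalized table holds the linear intensity of each probe and a detection p-value, per the file headers. The submitters' processing notes name GenomeStudio. The intensity values were all above 0 with unequal medians, so neither background subtraction nor normalization between arrays had been applied. The deposited normalized intensity kept the rank order of each array (Spearman rho 1) with medians of 112.1 to 112.2.

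Here limma 3.58.1 in R 4.3.3 corrected background and quantile normalized with neqc (negative controls read from detection p-values, offset 16), giving log2 values. Probes were fitted with lmFit and eBayes, two-sided, without covariates, with Benjamini-Hochberg adjustment across the 16732 probes tested. A gene was called when any probe had an adjusted p under 0.05, and took its direction from the probe of lowest p. List counts below 0, medians and overlaps used the brightest tested probe. The fit was tested on simulated data.

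Of 45281 probes, 34885 had 1 symbol in the platform annotation, 18 several and 10378 none, and 34807 were updated through RefSeq gene identifiers (GRCm38.p6). The members and gene lists were chosen with earlier results of these data known. Named with statistics were Chd8, called members, the 2 members with the lowest p per role, members with probes of opposite sign, and 3 genes per other list, with the values of the probe of lowest p (Fbln2 excepted). Other measured members are given outside this rule, as a description, with log2 change and SE, mostly on the brightest probe. Wee1 is in both the further mitotic list and the G2 arrest list. Alternatives covered background, scaling, filters, moderation, array weights and leaving out each array.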

Additional observations from a re-analysis of the deposited data

How the results depend on the processing

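The members' median log2 change of -0.29 was -0.11 with median scaling, where the median of all genes was 0.18, and -0.40 to -0.23 when 1 array was left out. It was below 0 in all these fits. The number of members called, 1 as reported, was 9 with normexp without controls, 9 without background correction, 9 with the deposited normalized values, 2 with median scaling, 4 with probes detected on all 6 arrays, 0 with an unmoderated test, 11 with an intensity trend, 10 with array weights, 10 at an adjusted p under 0.1 (against 16.1% of all genes), and 0 to 3 with 1 array left out. The number of genes called over all, 502 as reported, was in the same order of settings 1254, 1323, 1326, 1341, 833, 17, 1303 and 1282, and it was 224 with probes detected on at least 1 array, 259 without a filter, and 15 to 679 with 1 array left out. The share of members called was above that of all genes with an intensity trend (25.6%, against 13.4%) and with array weights (23.3%, against 13.2%). In the fits with 9 called it was 20.9%, against 12.9% to 13.7%. It was not above that of all genes with probes detected on all 6 arrays (9.76%, against 9.94%). With median scaling it was 4.65%, against 13.8%. The cause of the varying counts was not tested. Chd8 kept its direction and lost its call with the unmoderated test (log2 change -1.39, adjusted p = 0.061). Of 304 fits of 19 named members under other settings, 255 kept direction and side of the threshold, 41 gained a call, 5 lost one, all for Cdc25c, and 3 changed sign: Bub1b (0.10) and Ect2 (0.032) with median scaling, and Ect2 (0.023) without shChd8 replicate 2, in a range of -0.38 to 0.023 over the 6 arrays left out. A changed filter, test or trend leaves the log2 change as it was. No paired analysis was run, because the labels give no replicate numbers that pair arrays across groups. The replicate numbers used here only follow the order of the deposited samples. The slide could not be a block because all arrays share 1. Dim probes such as Ccna2, Pttg1 and Smc4 limit the precision, since background correction moved their log2 changes by over 1.5 times. This held for the called member too, with -0.98 for Cdc25c as reported and -0.63 without background correction.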

Other observations

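Log2 changes of the members were set beside the letters in their promoter windows. Of the 35 measured members with a window, the 27 with the letters had a median log2 change of -0.24, from -0.63 to 0.72, with 21 below 0. The 8 without them had a median of -0.29, from -0.87 to -0.0057, and all 8 were below 0. The 25 with CCAAT had a median of -0.28 and the 10 without it -0.13. Cdc25c (-0.98), Smc4 (-0.96), Ccna2, Aurkb, Incenp, Spc24, Foxm1 and Tpx2 were measured but had no window. They are left out of these medians, and all of them were below 0. These are descriptions of the genes with no test.

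Of the 43 measured members, 18 had more than 1 tested probe, and 3 of these had probes of opposite sign (Bub1b, Kif23 and Nusap1). The 2 tested probes of Foxm1 had -0.30 and -0.33 and those of Mad2l1 -0.28 and -0.24, whereas those of Cdc25c had -0.98 and -0.31 and those of Smc4 ran from -0.96 to -0.26. The transcripts that each probe reads were not analysed here.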
